A study of Mus musculus with 2 samples.

Results

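A group of interstitial cells of the mouse heart valve at postnatal day 7 (P7) was defined by RNA of Clca1, Clca2, Col6a6 or Eln. Its members were 169 of the 961 cell barcodes of the P7 library (17.6%, 95% exact Clopper-Pearson interval 15.2 to 20.1%) and 169 of the 4473 barcodes of the series. A barcode was a member when Col1a1, Col1a2, Col3a1 and Dcn together held at least 1% of its unique molecular identifiers (UMIs, which count RNA molecules) and it carried at least 1 UMI of the 4 marker genes Clca1, Clca2, Col6a6 and Eln. It also had to carry at most 1 UMI of Matn4, Col9a1, Col11a1 and Col11a2 together (the Matn4 set) and at most 2 UMIs of Igfbp3, Fgl2, Cxcl5, Bmx and Scn7a together (the Igfbp3 set). The choice was made on the measured UMIs, so levels of these genes describe the choice and are no evidence for it. Drop-seq, which captures RNA of single cells on barcoded beads in droplets, had been run on dissociated aortic and mitral valves of C57BL/6J mice at P7 and P30, with 1 library per age and no treatment or mutation named. The labels do not give the number of animals behind a library. With 1 library per age no test between groups was possible, intervals cover counting error only, and age cannot be told apart from the sequencing run.

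Valve interstitial cells build the layered matrix of the leaflet. Collagen gives the leaflet its strength, proteoglycans its compliance, and elastin, encoded by Eln, lets it recoil in each beat; elastin is laid on fibrillin microfibrils and crosslinked by lysyl oxidases. Col6a6 encodes a chain of collagen VI, a beaded filament that surrounds cells, and the Clca genes encode secreted or membrane proteins of the calcium-activated chloride channel accessory family, which regulate chloride channels and are also found in lymphatic endothelium.

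The Clca symbols of the deposited table follow an older naming. By RefSeq synonyms, its Clca1 is now Clca3a1, its Clca2 is Clca3a2 and its Clca4 is Clca3b, neighbours on chromosome 3 in mm10 (GENCODE M21): Clca3a1 lies at chr3:144729677-144760977, Clca3a2 at chr3:144796559-144819494 and Clca3b at chr3:144822623-144849357, all on the minus strand. Col6a6 lies at chr9:105687809-105828160 and Eln at chr5:134702593-134747323, also on the minus strand. Transcripts of the first pair were 96.5% identical over 3426 aligned bases, and their last 500 bases, the end that Drop-seq reads, were 93.9% identical over 277 aligned bases. Which of Clca1 and Clca2 a read belongs to is therefore uncertain, and the pair is also given as a sum. Transcripts of Clca4 were 88.1% identical to those of Clca1 over 2686 bases and 87.95% to those of Clca2 over 2640 bases, but their last 500 bases aligned over only 12 and 15 bases, so Clca4 was the most separable of the 3. Because the 3 neighbours were detected in the same barcodes, the 100 bases before each start site are shown, 5′ to 3′ on the gene's strand, from RefSeq on GRCm38.p6, with capitals for the octamer ATGCAAAT (searched on both strands, reverse complement ATTTGCAT), a motif read by POU-family factors.
Clca1 (Clca3a1), chr3:144760978-144761077: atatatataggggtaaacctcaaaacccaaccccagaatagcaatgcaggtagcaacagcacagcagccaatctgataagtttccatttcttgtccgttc
Clca2 (Clca3a2), chr3:144819495-144819594: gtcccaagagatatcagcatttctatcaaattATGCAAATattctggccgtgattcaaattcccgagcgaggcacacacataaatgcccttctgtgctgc
Clca4 (Clca3b), chr3:144849303-144849402: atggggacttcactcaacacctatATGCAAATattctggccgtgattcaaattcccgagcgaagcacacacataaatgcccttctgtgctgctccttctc
The full 300-base promoter entries, of which these windows are a part, were also aligned. Those of Clca2 and Clca4 were 94.3% identical over 157 aligned bases, whereas that of Clca1 aligned with either over only 15. The RefSeq start site of Clca4 lies inside the GENCODE gene, so its window overlaps the start of the gene as placed above. The octamer was in the 100-base windows of Clca2 and Clca4 and not in that of Clca1. It was in 212 of 32851 promoter windows of 100 bases (0.645%), so a match describes the sequence and is no evidence of binding. Of 3 other motifs searched on both strands, which do not overlap the octamer, CCAAT was in the window of Clca1 and in 18.9% of all such windows, and TATAAA (5.56% of windows) and TGGGAA (8.67%) were in none of the 3.

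The members were compared with the other 553 P7 barcodes of at least 1% matrix share. These others were 201 barcodes that met both caps and carried no marker UMI, 285 Matn4-set barcodes (at least 2 UMIs of that set) and 81 Igfbp3-set barcodes (at least 3 UMIs), of which 14 were in both sets. Members held a median of 1745 UMIs (670 to 14191) and 1064 genes, the no-marker barcodes 1584 UMIs, the Matn4-set barcodes 2823 and the Igfbp3-set barcodes 3487. Mitochondrial UMIs made 3.32% of the members' UMIs and 3.38% of the others'. No barcode was in both libraries, and 6 members lay within 1 base of another P7 barcode. Markers of other cell types were counted in both groups. Of the 169 members, 136 carried 3 or more UMIs of the red cell genes, and of the 553 others 482 did. For the mural markers the counts were 26 and 64, and for the smooth muscle markers 22 and 99. They were 5 and 18 for the endothelial markers and 0 and 5 for the macrophage markers. Summed macrophage markers stood at 15.7 CPM (UMIs of a gene per 1000000 UMIs of the group) in members and 43.1 CPM in the others, with 8 of 12 genes, Cd68, C1qa and C1qb among them, at 0 in members. Haemoglobin and other red cell genes summed to 3786 CPM in members, 11391 in the no-marker barcodes, 13557 in the Matn4-set and 3007 in the Igfbp3-set barcodes; their part in other results was not tested.

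Each marker gene was read in barcodes chosen on the other 3, among the 370 that met both caps. For Clca1 and Clca2 this choice included the near copy, so their ratios cannot be told apart from read-sharing. Clca1 reached 308 CPM in barcodes with a UMI of Clca2, Col6a6 or Eln and 38.1 CPM without, an 8.07-fold difference (95% interval 4.85 to 14.3). Clca2 reached 256 CPM where one of the other 3 was present and 22.4 CPM where none was, 11.4-fold (5.99 to 24.5). The 2 genes thus lay in the same barcodes: 52 of the 76 barcodes with Clca1 also carried Clca2 (68.4%), against 4.42% of those without Clca1. Read-sharing between these near copies was not tested. The sum of Clca1 and Clca2, which does not tell the 2 genes apart, was read in barcodes chosen on Col6a6 and Eln alone. It was 476 CPM there and 202 CPM in the rest, 2.35-fold (1.83 to 3.03). By barcode, 40 of the 120 so chosen and 49 of the other 250 carried either gene.

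The collagen VI chain and elastin were tied less closely to the Clca genes. Col6a6 was 161 CPM in barcodes chosen on the other 3 genes and 97.1 CPM in the rest (1.65-fold, 1.11 to 2.47). Eln was 139 CPM against 110 CPM (1.27-fold, 0.848 to 1.89), an interval that includes equal levels. Of the 76 barcodes with Clca1, 19 carried Eln, beside 15.6% of those without Clca1, and for Clca2 the shares with Eln were 21.5% and 16.7%. At this depth the elastin of the label was not shown to share a profile with the Clca genes, and the group is called here by its rule. Of the 169 members, 76 carried Clca1, 65 Clca2, 76 Col6a6 and 65 Eln, so no single marker gene was in most members.

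Clca4, which the rule did not use, gave a separate reading of the Clca part of the label. It had 33 UMIs in 25 of the 169 members (74.2 CPM, 51.1 to 104) and 1 UMI in the 201 no-marker barcodes (2.38 CPM). It had 7 UMIs in 6 of the 81 Igfbp3-set barcodes (21.7 CPM) and was 4.72 CPM in the Matn4-set barcodes. Members held 67.3% of the 49 Clca4 UMIs of the P7 library. Of the 26 barcodes with Clca4 among those that met both caps, 23 also carried Clca1 and 24 Clca2, but 10 carried Col6a6 and 9 Eln.

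**Figure D1:**
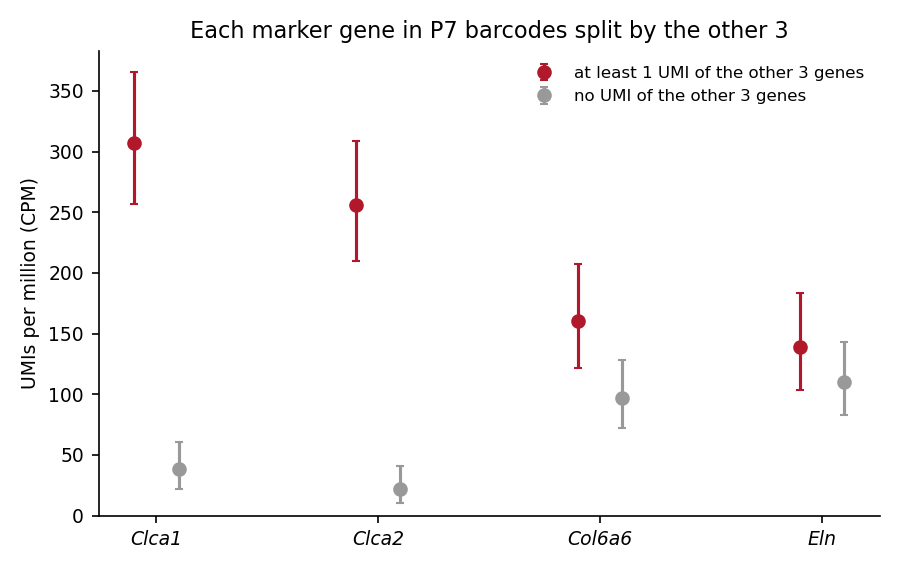
Level of each marker gene (CPM, with 95% counting intervals) in the P7 barcodes that met both caps, split by whether they carried a UMI of the other 3 marker genes. Clca1 and Clca2 stand far apart between the 2 sets (308 against 38.1 and 256 against 22.4 CPM), whereas the Eln intervals overlap (139 against 110 CPM). For Clca1 and Clca2 the other 3 genes include the near copy.

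A marker UMI was common beyond the members. Without the caps, 347 of the 722 barcodes of at least 1% matrix share carried one (48.1%), including 116 of the 285 Matn4-set barcodes (40.7%) and 71 of the 81 Igfbp3-set barcodes (87.7%). A background level was read where these genes should be lacking: among the 133 P7 barcodes under 1% matrix share with fewer than 3 endothelial UMIs, 10 carried a marker UMI (7.52%, 3.66 to 13.4%, median 1833 UMIs). With each barcode thinned to 500 UMIs the expected share was 1.86% there and 22.5% in the barcodes that met both caps. Membership also varied with depth: of the barcodes that met both caps, 41.1% of the 124 shallowest, 43.1% of the next 123 and 52.8% of the 123 deepest were members.

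Among members, Clca1 stood at 328 CPM (277 to 386), Clca2 at 263 CPM, Col6a6 at 241 CPM and Eln at 238 CPM, levels that the choice of members sets. In the Igfbp3-set barcodes, which were not chosen on these genes, Clca1 was 442 CPM and Eln 282 CPM, above the members, while Clca2 was 179 and Col6a6 173 CPM, below them. In the Matn4-set barcodes Clca1, Clca2 and Col6a6 were 49.0, 30.2 and 42.4 CPM, and Eln was 114 CPM. Of all UMIs in the library, members held 52.5% of Col6a6, 51.8% of Clca2, 38.7% of Clca1 and 27.5% of Eln. Barcodes in the Matn4 set alone held a further 29.8% of the Eln UMIs, more than the members, and barcodes in the Igfbp3 set alone held 34.5% of the Clca1 UMIs.

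**Figure D2:**
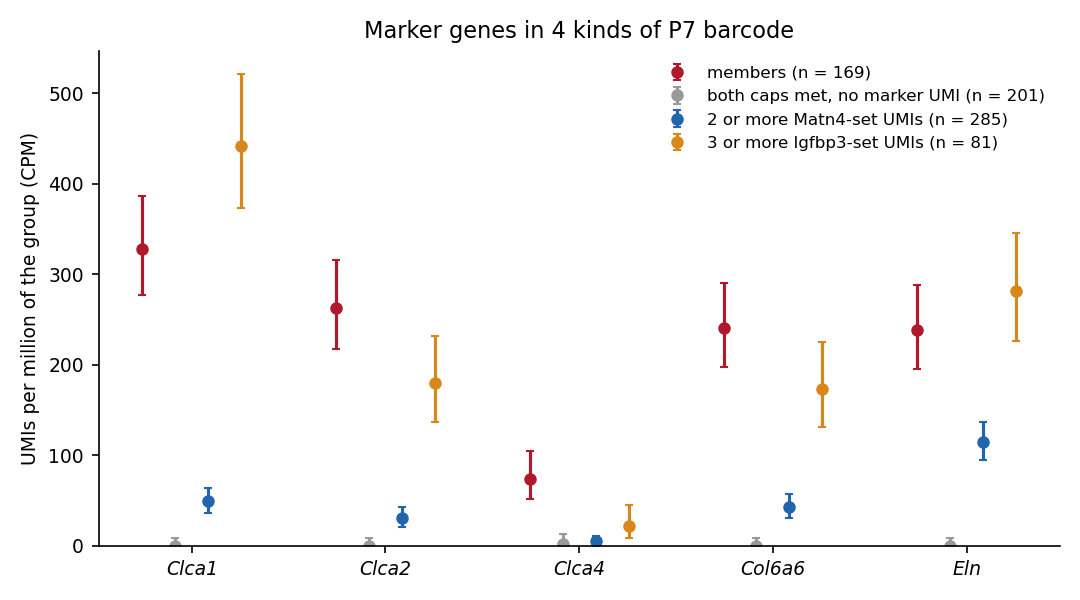
Levels of the 4 marker genes and of Clca4 (CPM, with 95% counting intervals) in members, in no-marker barcodes and in Matn4-set and Igfbp3-set barcodes of the P7 library. The no-marker barcodes are at 0 for the 4 marker genes by the rule; Clca4, outside the rule, is highest in members (74.2 CPM), and Clca1 and Eln are higher in the Igfbp3-set barcodes (442 and 282 CPM).

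Members differed among themselves by the marker they carried. A single marker UMI was all that 71 members had, 32 had 2 and 66 had 3 or more. Only Clca1 was carried by 13 members, only Clca2 by 10, only Col6a6 by 36 and only Eln by 36, and 74 carried at least 2 of the 4 genes. The 36 members with Eln alone stood apart from the 74. Fmod, a small proteoglycan of collagen fibrils, was 649 CPM in the Eln-only members and 47.6 CPM in those with 2 or more marker genes. Prg4, the lubricating proteoglycan 4, was 980 CPM in the first and 165 CPM in the second. Abi3bp, a matrix-binding protein, was 1081 CPM in the first and 139 CPM in the second. Col1a2, a chain of collagen I, was 21218 against 9052 CPM, and Sfrp2, a secreted Wnt inhibitor, was 3778 against 1307 CPM. The reverse held for Gucy1a3, a subunit of the nitric oxide receptor guanylate cyclase, at 63.6 CPM in Eln-only members and 212 CPM in the 74, and for Enpp6, a choline phosphodiesterase, at 25.4 and 121 CPM. Hey1, a transcription factor induced by Notch, had no UMI in the Eln-only members and 99.6 CPM in the 74. Clca4 had none in the members that carried only Clca1, only Col6a6 or only Eln, 75.9 CPM in the 10 with Clca2 alone and 134 CPM in the 74.

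Values at the edges of the rule were as follows. The 33 members with 1 UMI of the Matn4 set had 223 CPM of Clca1, 594 of Prg4 and 74.3 of Gucy1a3, and the 136 members with none had 357, 325 and 186 CPM. Just outside that cap, 24 barcodes with 2 UMIs of the set and a marker UMI had 233 CPM of Clca1, 847 of Prg4 and 12.3 of Gucy1a3. The 114 members with no UMI of the Igfbp3 set had 281 CPM of Clca1 and 102 of Gucy1a3. The 19 members with 2 UMIs of that set had 753 and 377 CPM, so both genes were higher in members at the edge of this cap. Just outside it, the 6 barcodes with 3 such UMIs and a marker UMI had 1323 and 156 CPM. Below the matrix minimum, 10 barcodes of 0.5 to 1% matrix share that met all else had 213 CPM of Clca1, 298 of Eln and 21.3 of Col6a6, beside 309, 193 and 96.4 CPM in the 16 members of 1 to 1.5% share.

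Against the other 553 barcodes, members had more RNA of Clca4 and of genes such as Hey1, Enpp6, Akap12, Gucy1a3, Matn2 and Ebf1, and less of the proteoglycan and cartilage-type genes Prg4, Fmod, Prelp, Comp and Cilp2. Of 5677 genes measured (at least 20 CPM and 20 UMIs in the higher group, the 17 genes of the rule left out), 527 were at least 1.5-fold higher in members (9.28%) and 656 lower (11.6%). At 2-fold the counts were 123 higher (2.17%) and 265 lower (4.67%). With median-of-ratios scaling, which shifts every log2 ratio down by 0.16, the 1.5-fold counts became 296 higher and 977 lower. The caps removed Matn4-set and Igfbp3-set barcodes from the members, so these ratios partly restate the rule; levels in the 201 no-marker barcodes, which met the same caps, are given beside them.

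Gucy1a3 had 72 UMIs in 35 members (162 CPM), 58.0 CPM in the others and 64.1 CPM in the no-marker barcodes, a 2.79-fold difference from the others. It was almost absent from the Matn4-set barcodes (5 UMIs, 4.71 CPM) and was 223 CPM in the Igfbp3-set barcodes. Enpp6 had 39 UMIs in 24 members (87.7 CPM), 20.1 CPM in the others and 33.3 CPM without a marker UMI. Hey1 had 30 UMIs in 15 members, of which 9 came from 1 barcode (67.5 CPM against 13.2 in the others and 28.5 without a marker UMI), and the ratio to the others was 5.11-fold, or 3.68-fold without that barcode. Akap12, a scaffold for protein kinases A and C, had 119 UMIs in 47 members (268 CPM against 79.9). Matn2, a matrilin of filamentous matrix, was in 58 members (211 CPM against 79.9, 2.65-fold), and Ebf1, a transcription factor of mesenchymal cells, was in 57 (209 against 79.9, 2.62-fold). In the no-marker barcodes Matn2 was 102 CPM and Akap12 159 CPM, over 1.5-fold below the members, and Ebf1 was 152 CPM, inside 1.5-fold. Between members and the Igfbp3-set barcodes Matn2 was inside 1.5-fold.

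A few of the genes ranked highest rested on very few barcodes. H19, an imprinted noncoding RNA of fetal tissue, had 110 UMIs in 15 members with 40 in 1 barcode, and its ratio of 3.84-fold was 2.47-fold without it; it was 247 CPM in members and 73.6 without a marker UMI. Serpine2, a protease inhibitor, had 136 UMIs in 41 members, 42 of them in 1 barcode, and was 2.64-fold higher, or 1.84-fold without it. It was 306 CPM in members and 230.4 CPM in the no-marker barcodes, inside 1.5-fold, and with Clca1 and Clca2 left out of the choice its log2 ratio to the others turned to -0.13. The mitotic genes Ccnb2 and Racgap1 were each in 10 members and Cenpe in 8; their ratios were 4.99-fold, 5.38-fold and 3.58-fold. In the no-marker barcodes Ccnb2 was 16.6 CPM, Racgap1 had 8 UMIs and Cenpe was 59.4 CPM, beside 83.2 CPM, 22 UMIs and 96.7 CPM in members. Cenpe was 2.03-fold higher than in the others without its leading barcode, and its log2 ratio turned to -0.25 without cycling barcodes. The share of cycling barcodes was close in members and others: 16 of 169 (9.47%) and 52 of 553 (9.40%) carried at least 2 UMIs of 10 cell cycle genes, with 30 of the 201 no-marker barcodes and none of the 81 Igfbp3-set barcodes.

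On the lower side, Prg4 was 382 CPM in members, 3539 in the others and 1699 in the no-marker barcodes, log2 ratios of -3.21 and -2.15. Fmod was 171, 1145 and 470.4 CPM in the same order, and Prelp, which anchors collagen to basement membranes, 202, 876 and 482 CPM. Abi3bp stood at 349 CPM in members, 1561 in the others and 637 without a marker UMI. Fibin, a secreted fin bud factor, stood at 81.0, 499 and 257 CPM. Comp, the cartilage oligomeric matrix protein, had 6 UMIs in 3 members (13.5 CPM against 207 and 71.3). Cilp2 and Chad, cartilage matrix proteins, had 1 UMI each in members, and Cyp26a1, which breaks down retinoic acid, had 8. Chrdl1, an inhibitor of bone morphogenetic proteins, had 5. In the no-marker barcodes Cilp2 and Chad had 4 UMIs each, Cyp26a1 29 and Chrdl1 10. Cytl1 and Rgs7bp had none, against 47.1 and 30.5 CPM in the others and 45.1 and 21.4 CPM in the no-marker barcodes, so members were at least 2.80 and 2.17 lower on the log2 scale when a limit of 3 UMIs is used.

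**Figure D3:**
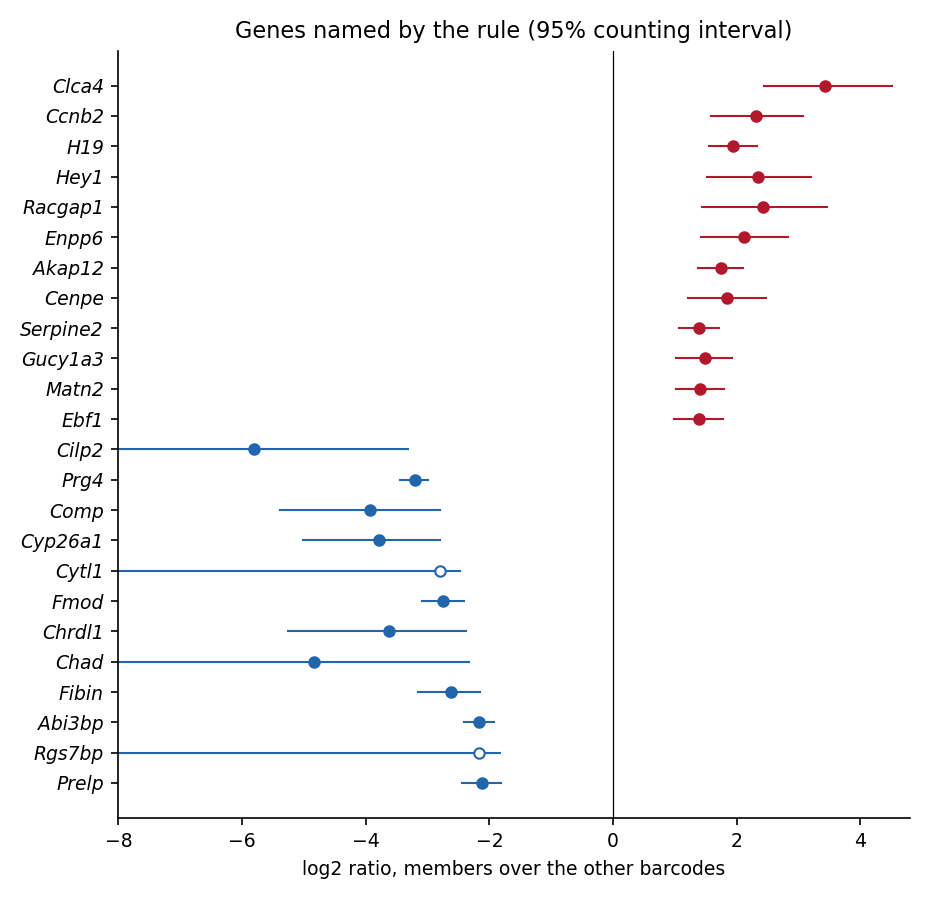
Log2 ratio of members over the other P7 barcodes (points, with 95% counting intervals; open points are bounds for genes with no UMI in members) for the 12 genes per direction whose interval lay farthest from equal levels. Clca4 leads the higher genes, and Prg4, Fmod, Abi3bp and Prelp are the lower genes with the narrowest intervals.

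The elastin assembly genes were mostly not higher in members, of which 65 of 169 carried Eln. Barcodes with and without Eln were not compared for these genes. Of 20 measured genes of elastic fibre assembly other than Eln, 1 was at least 1.5-fold higher in members than in the others, Fbln2, and 8 were lower, with a median log2 ratio of -0.27 beside 0.01 over all measured genes. Of all measured genes 9.28% were higher and 11.6% lower. Fbln2, a fibulin of microfibrils and vessel walls, was 722 CPM in members and 441 in the others. Fbln5, a fibulin needed for elastic fibres, was 398 CPM in members, 910 in the others and 656 in the no-marker barcodes. Ltbp2, a microfibril protein that binds fibulin-5, was 78.7, 221 and 157 CPM. Lox, the crosslinking enzyme, was 223, 373 and 185 CPM, so it was lower than in the others as a whole but not than in the no-marker barcodes. Against the no-marker barcodes 0 of 19 measured genes of this list were higher and 3 lower, with a median of 0.01. Of all genes 10.9% were higher there and 8.53% lower.

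Among 15 measured non-fibrillar collagens outside the rule, 3 were higher in members than in the others and 5 lower, beside 9.28% and 11.6% of all genes. The higher ones were Col18a1 (175 against 77.0 CPM), Col4a2 (315 against 184 CPM) and Col4a1 (418 against 248 CPM), all found in basement membranes, but another basement membrane chain, Col4a4, was lower (4 UMIs in members, 33.9 CPM in the others). Col18a1 was 173 CPM, Col4a1 420 CPM and Col4a2 323 CPM in the no-marker barcodes, close to the members. Other collagen VI chains had lower levels in members: Col6a1, Col6a2 and Col6a3 were 439, 277 and 214 CPM in members and 631, 471 and 334 CPM in the others. For Col6a1 this was inside 1.5-fold. Against the no-marker barcodes, 1 of 13 measured non-fibrillar collagens was higher and 2 were lower, Col12a1 and Col16a1. Of all genes 10.9% were higher there and 8.53% lower. Col6a6 itself was used by the rule and was in 76 of the 169 members. These chains were not compared between barcodes with and without it. Col8a2, of corneal matrix, had 4 UMIs in members and stood at 65.5 CPM in the others. Of 3 measured fibrillar collagens outside the rule, Col5a1 and Col5a2 were lower, and of 20 collagen-processing genes 5 were lower and 0 higher.

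Of 9 measured basement membrane genes 5 were higher than in the others, where 9.28% of all genes were, and 2 lower, where 11.6% were (median 0.73). Lama2, a laminin of muscle and mesenchymal basement membrane, was in 44 members (135 CPM, 67.8 in the others, 80.8 without a marker UMI). Lama4, Lamb1, Lamc1 and Nid1, which join the laminin network, were 290, 229, 180 and 454 CPM in members and 168, 124, 107 and 275 CPM in the others. Against the no-marker barcodes 1 of 8 was higher, Lama2, and 1 lower, shares near those of all genes (10.9% and 8.53%).

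Of 17 measured proteoglycan genes 8 were lower than in the others and 2 higher (median -0.46), and of 14 matricellular genes 8 were lower and 1 higher (median -0.89). Of all genes 11.6% were lower and 9.28% higher. Against the no-marker barcodes 3 of 15 proteoglycan genes were lower and 3 higher, and 5 of 12 matricellular genes were lower and 1 higher. Of all genes 8.53% were lower there and 10.9% higher. The 2 higher proteoglycan genes were Gpc6, a glypican (164 against 84.5 CPM), and Has2, which makes hyaluronan (101 against 59.8 CPM). Spon1 was the higher matricellular gene (164 against 89.7 CPM). Thbs1, which activates TGF-beta, was 1125 CPM in members, 2291 in the others and 1991 in the no-marker barcodes, and Ctgf was 342, 702 and 665 CPM. Thbs4, a tendon thrombospondin, had 1 UMI in members. Of 12 measured genes of cartilage, tendon and bone outside the rule, Matn2 was higher and 8 were lower (median -1.03). Sox9, the cartilage regulator, was 387 CPM in members and 457 in the others, inside 1.5-fold.

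Of 7 measured Notch and hedgehog genes, 4 were higher in members than in the others, Hey1, Heyl, Notch3 and Notch1, and 0 lower (median 0.89). Of all genes 9.28% were higher than in the others and 11.6% lower. Heyl, another Notch target, was in 36 members at 128 CPM, against 51.1 CPM in the others, 73.6 without a marker UMI and 22.6 in the Matn4-set barcodes. Against the no-marker barcodes 2 of 8 were higher, Hey1 and Heyl. Pdgfra, a growth factor receptor of mesenchymal cells, was in 52 members at 178 CPM, against 66.7 CPM in the others and 57.0 without a marker UMI (3.12-fold). Between members and the Igfbp3-set barcodes Pdgfra was inside 1.5-fold. Of 19 measured Wnt genes 1 was higher than in the others, Lef1, and 8 lower (median -0.47), with Wif1, a secreted Wnt inhibitor, at 243 against 718 CPM. Against the no-marker barcodes 4 of 16 Wnt genes were higher and 4 lower (median -0.23), where 10.9% of all genes were higher and 8.53% lower.

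Transcription factors of valve mesenchyme were mostly inside 1.5-fold, with 2 of 23 higher, Ebf1 and Gata4, and 6 lower, led by Klf4 and Meox1. Over all genes measured against the others, 9.28% were higher and 11.6% lower, so the share of higher factors was near that of all genes. Of 11 measured genes of a list of imprinted and growth genes, 5 were higher (H19, Dlk1, Parm1, Cdkn1c and Igf2) and 0 lower. Dlk1 had 24 UMIs in 10 members, 29.2% of them in 1 barcode. Parm1 had 27 UMIs in 9 members, 40.7% of them in 1 barcode. Lipid genes were higher for Fabp5 and Angptl4 and lower for Plin2, of 7 measured. Apoe, an apolipoprotein, was 3817 CPM in members and 2587 in the others, just under 1.5-fold, and 2216 in the no-marker barcodes. Among channel genes outside the rule, Clca4 and the mechanosensitive channel Piezo2 (74.2 against 28.7 CPM) were higher of 9 measured and 2 were lower, Ano10 (log2 ratio -0.69) and Piezo1 (-0.59); Piezo2 was 73.6 CPM in the no-marker barcodes. Mural markers summed to 535 CPM in members, 314 in the others and 390 in the no-marker barcodes, with Rgs5 at 326, 136 and 195 CPM and 28 of its 145 UMIs in 1 member; the median over the 5 measured mural genes was 0.90 and changed sign in 4 alternatives. Endothelial markers summed to 216 CPM in members and 146 in the others, of which Eng and Tek were measured and Tek was the higher one (21 UMIs, 47.2 CPM, against 33 UMIs in the others, a log2 ratio of 1.32). Their part in the basement membrane and Notch results was not tested.

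**Figure D4:**
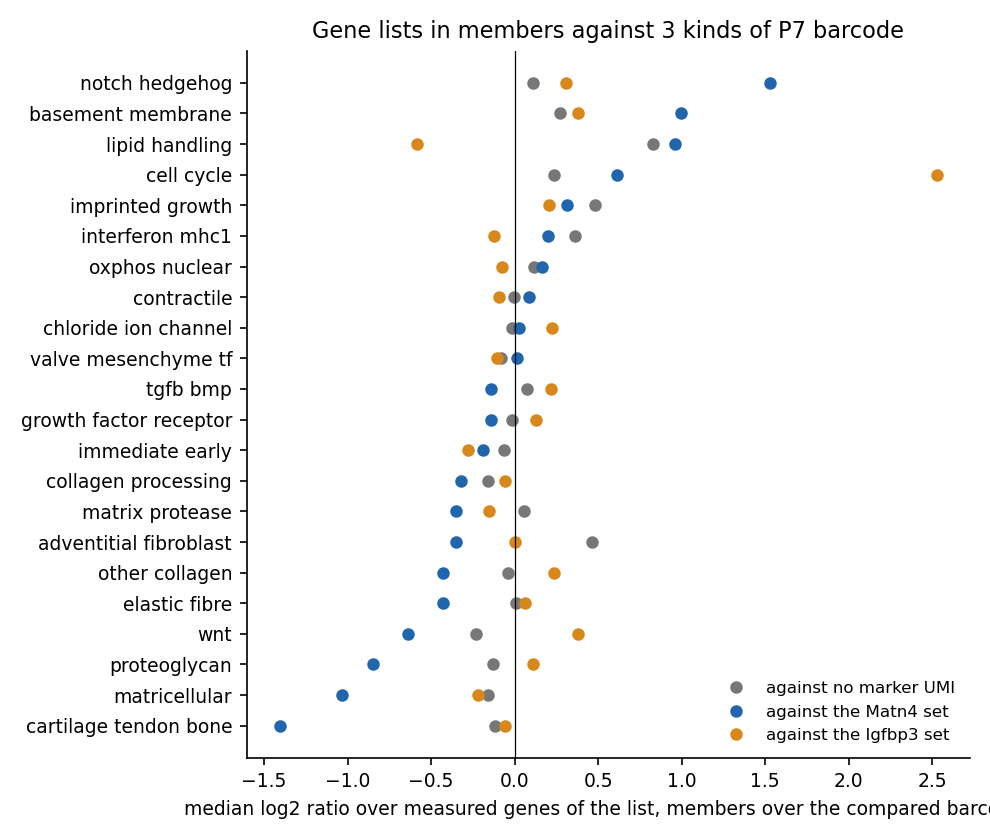
Median log2 ratio over the measured genes of each list with at least 5 measured in all 3 comparisons (rule genes and lists of other cell types' markers left out) in members over the no-marker, Matn4-set and Igfbp3-set barcodes of the P7 library. Against the Matn4 set the lists shown spread from cartilage, tendon and bone genes (-1.41) to Notch and hedgehog genes (1.53), whereas against the no-marker barcodes most lie near 0; cell cycle genes stand at 2.53 against the Igfbp3 set.

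The no-marker barcodes were the closest group in the rule. Of 4500 genes measured, 489 were at least 1.5-fold higher in members (10.9%) and 384 lower (8.53%). The genes named higher were Clca4, H19, Ccnb2, Pdgfra, H2-Ab1 and Cxcl1. H2-Ab1, an MHC class II chain, had 28 UMIs in 14 members (63.0 CPM) and 6 UMIs in the no-marker barcodes (14.3 CPM). Cxcl1, a neutrophil chemokine, was 207 CPM in 36 members and 78.4 CPM without a marker UMI. The genes named lower were Prg4, Leprel1, Tshz3, Comp, Enpp1 and Fibin. Leprel1, a prolyl hydroxylase of collagen, had 7 UMIs in members and 46 in the no-marker barcodes (15.7 against 109 CPM), and Enpp1, which makes the mineralisation inhibitor pyrophosphate, had 6 and 30 UMIs.

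Against the Matn4-set barcodes, 786 of 5571 genes were higher in members (14.1%) and 753 lower (13.5%). Gucy1a3 (34.4-fold), Enpp6 (31.0-fold), Clca4 (15.7-fold), Hey1 (14.3-fold), Akap12 (7.89-fold) and Serpine2 (6.76-fold) led the higher genes. Prg4 was 5126 CPM and Cyp26a1 376 CPM in the Matn4-set barcodes, against 382 and 18.0 CPM in members. Against the Igfbp3-set barcodes, 713 of 4103 genes were higher (17.4%) and 340 lower (8.29%). The higher genes were led by mitotic genes, Top2a (89 UMIs in 14 members, none in the Igfbp3-set barcodes, at least 21.6-fold) and Mki67 (76 UMIs in 13 members, none, at least 18.4-fold), where a limit of 3 UMIs stands for 0. Selp, an adhesion molecule for leukocytes, was 13.5 CPM in members and 99.0 CPM in the Igfbp3-set barcodes. Cd200, an inhibitory surface protein, was 65.2 and 232 CPM, and Cdc42ep3 193 and 563 CPM. Sfrp2 (1505 against 3335 CPM) and Cxcl1 (207 against 597 CPM) were lower in members than in the Igfbp3-set barcodes.

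Several of these genes followed the number of marker UMIs in barcodes that met both caps. Prg4 was 1699 CPM with no marker UMI, 762 with 1, 174 with 2 and 181 with 3 or more. Fmod was 470.4, 342, 94.8 and 75.1 CPM in that order. Gucy1a3 was 64.1, 71.0, 174 and 221 CPM, Enpp6 33.3, 58.1, 79.0 and 110.4 CPM, and Clca4 2.38, 12.9, 47.4 and 124 CPM. Members with a single marker UMI were thus close to the no-marker barcodes in Gucy1a3, and those with 3 or more were farthest from them. Median depth was 1584, 1660, 1558.5 and 2690 UMIs over the same 4 steps, so the last step was also deeper. The mix of marker genes changed too. Clca1 was in 14.1% of barcodes with 1 marker UMI and 77.3% of those with 3 or more, and Clca2 in 14.1% and 66.7%. For Col6a6 the shares were 38.0% and 54.5%, and for Eln 33.8% and 47.0%. The part of depth and of this mix in these levels was not tested.

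**Figure D5:**
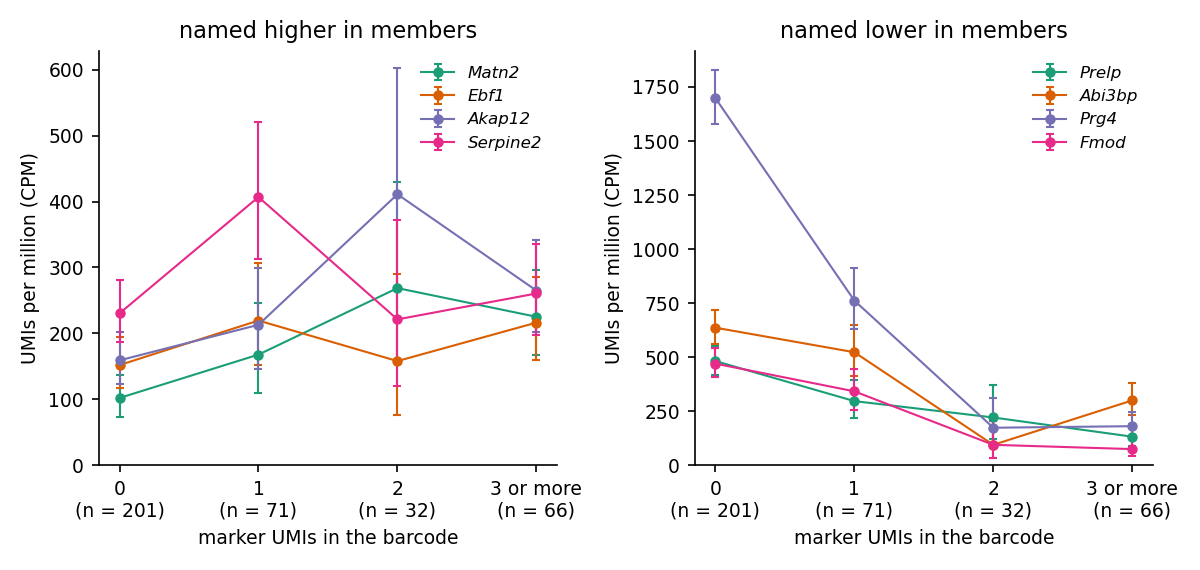
Levels (CPM, with 95% counting intervals) by the number of marker UMIs in the P7 barcodes that met both caps, for the 4 genes per direction found in the most members among those named. Prg4 is at 1699 CPM with 0 marker UMIs, 174 with 2 and 181 with 3 or more, while Serpine2 peaks at 407 CPM with 1 and has no steady order.

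The same rule in the P30 library found 140 of 3512 barcodes (3.99%), or 6.90% (5.83 to 8.09%) of the 2030 that met both caps, beside 45.7% (40.5 to 50.9%) of 370 at P7. Thinned to 500 UMIs, 1.88% of those P30 barcodes and 22.5% of the P7 ones were expected to carry a marker UMI. The P30 share was thus close to the 1.86% of the P7 barcodes read as background. Whether the P30 members are the same kind of cell as the P7 members was not tested. Within the P30 members Clca1 was 100 CPM, Clca2 198, Clca4 31.1, Col6a6 118 and Eln 71.2 CPM. The rule fixes at least 1 marker UMI per member, and P30 members were deeper (median 2975 UMIs against 1745), so these levels are not compared with those at P7. Clca4 was again rare in other P30 barcodes of at least 1% matrix share, at 1.38 CPM. Of 4576 genes measured, 1542 were at least 1.5-fold higher in P7 than in P30 members (33.7%) and 758 lower (16.6%), with a median of 0.23, and within P30 279 of 5025 genes were higher in members than in other barcodes (5.55%) and 536 lower (10.7%). Of 10 measured cell cycle genes, 9 were higher in P30 members than in those other P30 barcodes and 0 lower (median 2.83). Cycling barcodes made 5% of the P30 members and 2.18% of the other P30 barcodes.

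P7 members had more RNA of elastic fibre genes and of imprinted and growth genes than P30 members, and less of interferon and MHC class I genes. Other barcodes of at least 1% matrix share differed between the libraries in the same direction: elastic fibre genes summed to 7757 CPM at P7 and 4632 at P30, and interferon and MHC class I genes to 1287 and 6581 CPM. Red cell genes summed to 3786 CPM in P7 members and 772 in P30 members, and the nuclear RNA Malat1 made 1.06% and 3.78% of their UMIs; their part in the results was not tested. Of 19 measured elastic fibre assembly genes 12 were higher at P7 and 2 lower, beside 33.7% and 16.6% of all genes. Fbn2, the fibrillin of developing tissue, was 286 CPM at P7 and 15.6 at P30 (18.3-fold), and Lox was 223 and 22.2 CPM. Sfrp2 was 1505 and 102 CPM (14.7-fold), and Col18a1 175 and 11.1 CPM (15.8-fold). Dlk1 and Parm1 had 24 and 27 UMIs at P7 and none at P30, and 9 of 10 measured imprinted and growth genes were higher at P7. Nrep was 790 and 73.4 CPM. Of 15 measured interferon and MHC class I genes 14 were lower at P7 and 0 higher (median -3.02), among them Ifi27l2a with 1 UMI at P7 and 823 CPM at P30. Mgp, the matrix Gla protein that inhibits calcification, was 2636 and 13278 CPM. Prg4 was 382 CPM in P7 members and 2843 in P30 members, and at P30 it was again lower in members than in the other barcodes (6205 CPM).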

How the data were processed

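The Drop-seq gene tables hold raw UMI counts per gene and barcode, as the authors deposited them; normalized tables were not used. Bowtie2 2.2.7 and the build mm10 come from the submitters' processing notes, which state no role for them; which program counted the UMIs, and on which annotation, is not stated in what was used here. The members and gene lists were chosen with earlier results of these data known. UMIs were summed over barcodes and given as CPM with exact Poisson intervals, ratios with exact binomial intervals given both groups' total for the gene (95%), and shares with exact Clopper-Pearson intervals. A gene was measured at 20 CPM and 20 UMIs in the higher group and counted at 1.5-fold (or 2-fold). A gene with 0 UMIs was set to a limit of 3 UMIs per group for its ratio. Named genes were the 12 per direction whose interval lay farthest from equal levels (6 per direction in further comparisons), the 17 rule genes, and the 2 highest and 2 lowest of each list; genes of the rule, mitochondrial, ribosomal protein, haemoglobin, histone cluster and unnamed genes were left out of the first. Other genes were named after their values were seen. In addition, for thinning, shares were computed at 500 UMIs per barcode. No doublet caller was applied; barcodes over 10000 UMIs or with markers of other types were left out as alternatives. Depth was 3116184 UMIs at P7 and 11267724 at P30. Promoters came from RefSeq (GRCm38.p6), where Eln had no entry, and positions from GENCODE M21. Ratios and intervals were tested on simulated group sums with counting error alone. That test held no spread between barcodes, so it does not cover genes whose UMIs lie in few barcodes. Python 3.11.15, numpy 2.4.6, pandas 2.3.3, scipy 1.17.1, Biopython 1.88 and matplotlib 3.10.9 were used.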

Additional observations from a re-analysis of the deposited data

Results flagged for a closer look

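Marker genes were also found outside the interstitial barcodes, in the 239 P7 barcodes of under 1% matrix share, which were no part of the members or of the barcodes they were compared with gene by gene. Clca1 reached 52.6 CPM there (38.9 to 69.5), Clca2 27.9 CPM, Eln 79.4 CPM and Clca4 4.29 CPM, above the 3.22 CPM that 3 UMIs make in these barcodes, while Col6a6 had 3 UMIs. Most of it lay in barcodes with 3 or more endothelial marker UMIs, which were 106 of the 239: 45 of 49 Clca1 UMIs, 20 of 26 Clca2 UMIs, 72 of 74 Eln UMIs and 3 of 4 Clca4 UMIs. Of those 106, 48 carried a UMI of the 4 marker genes (45.3%), close to the 45.7% of interstitial barcodes that met both caps, but thinned to 500 UMIs the shares were 13.5% and 22.5%.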

How the results depend on the processing

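The number of members was 169, and it was 120 with Clca1 and Clca2 left out of the choice, 133 with Col6a6 or with Eln left out, 98 with at least 2 marker UMIs, 135 at a matrix share of 2%, 347 with no caps, 83.2 expected when thinned to 500 UMIs and 127 without barcodes ending in N. Genes at least 1.5-fold higher numbered 527, and 347 without Clca1 and Clca2 in the choice, 334 with at least 2 marker UMIs, 2085 at a minimum of 5 UMIs, 129 at 50 CPM and 50 UMIs, 296 with median-of-ratios scaling and 165 when thinned. Lower genes numbered 656, and 1839 at 5 UMIs and 239 at 50 CPM and 50 UMIs. At 2-fold the higher genes were 123, and 69, 799, 23, 75 and 26 for Clca1 and Clca2 left out, 5 UMIs, 50 CPM and 50 UMIs, median-of-ratios and thinning; the lower genes were 265, and 874 at 5 UMIs, 91 at 50 CPM and 50 UMIs and 76 with no caps. Cenpe reversed to -0.25 (log2) without cycling barcodes and Serpine2 to -0.13 with Clca1 and Clca2 left out. The cell cycle median reversed to -0.077 with at least 2 marker UMIs and -0.41 when thinned, and the complement median to 0.71 at 5 UMIs and 0.92 with no caps. The mural median reversed to -0.20 and -0.062 with Clca1 and Clca2 or with Col6a6 left out, -0.69 when thinned and -0.048 without barcodes ending in N. The cause was not tested, beyond the fewer or more genes that a changed minimum admits. With median-of-ratios scaling the medians of the imprinted and growth, channel, contractile and respiratory chain lists, all under 0.15 in size, changed sign. No paired analysis was possible because each age has 1 library. Of the remaining values for 24 named genes, 347 kept direction and size and 79 moved, and of list medians 456 and 24. Leaving out the member with the most UMIs of a gene was chosen after seeing the data. Depth limits genes such as Cilp2, Chad and Cytl1, with 0 or 1 UMI in members.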
